A study of Mus musculus with 6 samples.

Results

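The genes described here are Ret and 7 genes of its ligand and co-receptor system: Gfra1, Gfra2, Gfra3, Gfra4, Gdnf, Nrtn and Artn. They were taken by gene symbol, and each was read by 1 probe set, which gives 8 of the 19936 genes that could be named. Ret heads the set because it was chosen by its difference between the groups on these arrays, so its values below are a description and carry no test. The same holds for its 7 partners, which come from the same contrast.

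The study used Affymetrix arrays to measure RNA in mouse pre-B cells that BCR-ABL1 had transformed; this kinase arises from the Philadelphia chromosome and drives a form of acute lymphoblastic leukaemia. The cells in both groups came from wild-type C57Bl6 mice aged 4 weeks. The first group, called IKZF1 here, was transduced with pMIG-IKZF1, a retroviral vector with IKZF1, which encodes Ikaros, a zinc finger transcription factor of lymphoid cells. The second, called empty vector, received pMIG alone. Both were sorted for the green fluorescent protein of the vector 3 days after transduction, and there were 3 arrays in each group. Whether arrays of 1 group stem from different cultures or different animals is not in the labels, so every SD, SE and p measures only the spread between these arrays, which may be technical. Nor do they give the species or isoform of the IKZF1 insert, or whether the transformed cells are 1 clone.

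RET is a receptor tyrosine kinase that does not bind its ligands alone. A ligand of the glial cell line-derived neurotrophic factor (GDNF) family first binds a GFRA co-receptor, which is held to the membrane by a lipid anchor, and the pair then brings RET molecules together so that they phosphorylate each other. The system is best known from the enteric nervous system, the kidney and spermatogonia. In blood-forming tissue, RET is known from haematopoietic stem cells and innate lymphoid cells, and rearranged RET is an oncogene in thyroid and lung cancer.

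Values are RMA intensities as deposited, given here as log2(intensity + 1). As a measure of the dim range, 95% of 1194 olfactory and vomeronasal receptor genes lay below a log2 level of 6.24 in the IKZF1 group and below 6.12 in the empty vector group. The dim range was highest on IKZF1 2, where the 95% limit was 6.36, against 6.10 to 6.19 on the other 5 arrays. Array medians lay between 100.2 and 107 intensity units. Ikzf1, the transduced gene, read 13.09, 13.14 and 13.06 on IKZF1 1 to 3 and 11.85, 11.78 and 11.98 on empty vector 1 to 3, so the arrays go with their labels. All 13 measured pre-B cell markers, among them Cd79a, Pax5 and Rag1, lay above the dim range in both groups.

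Ret transcripts were far higher in cells that received IKZF1. The Ret probe set read 690.0, 734 and 469.95 intensity units on IKZF1 1, 2 and 3, and 79.1, 92.5 and 75.8 units on empty vector 1, 2 and 3. All 3 IKZF1 arrays lay several times above all 3 empty vector arrays, and IKZF1 3 was the lowest of its group. On the log2 scale Ret averaged 9.28 ± 0.35 in the IKZF1 group and 6.38 ± 0.15 in the empty vector group (SD, n = 3 each). The difference was 2.90 ± 0.22 (SE), or 7.47-fold. It was the largest rise but 5 among all genes, and 0.562% of genes rose by at least 2-fold. As RNA was pooled over sorted cells, more cells with Ret and more Ret RNA per cell cannot be told apart.

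The empty vector level of Ret lay just above the dim range, and a fold on the log2(intensity + 1) scale understates the change of a low signal. Between arrays of the same number the difference was 3.11, 2.98 and 2.62 for numbers 1, 2 and 3. Ikzf1 differed by 1.24, 1.37 and 1.08 between the same arrays, so number 3 gave the smallest difference for both genes. For Ret this number had the lowest IKZF1 array, and for Ikzf1 it had both the lowest IKZF1 array and the highest empty vector array. Group accounted for 97.8% of the sum of squares of Ret over the 6 arrays and replicate number for 1.72%. The values for Ikzf1 were 98.9% and 0.188%, and the medians over all genes were 27.1% and 41.3%. As Ret was chosen by its group difference, a high group share follows from that choice and is no test.

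**Figure D1:**
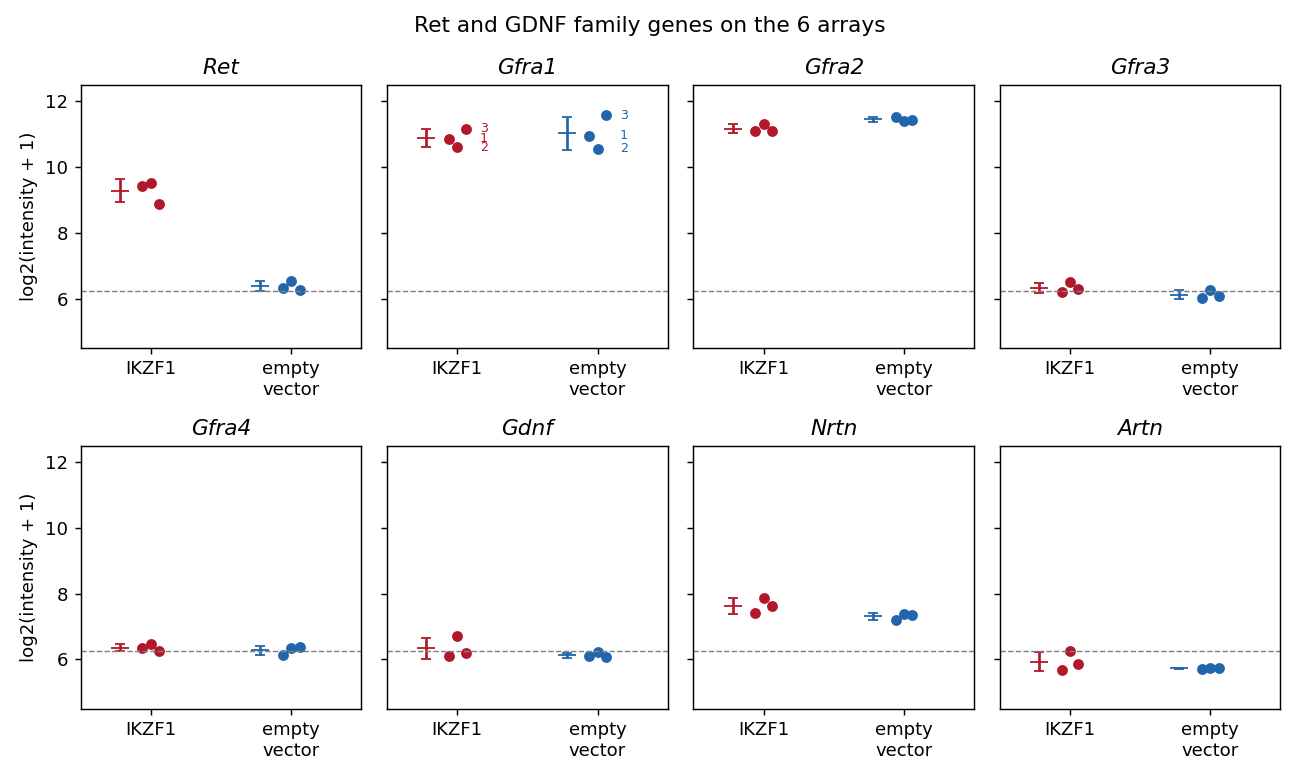
Log2(intensity + 1) of the 8 genes on the y axis, with the 3 IKZF1 arrays (red) left of the 3 empty vector arrays (blue) in each panel. Points are arrays in the order 1, 2, 3, numbered for Gfra1, crosses with bars are the mean and SD, and the dashed line is the IKZF1 group's limit of the dim range (6.24). Ret stands at 9.28 against 6.38, Gfra1 and Gfra2 are bright in both groups, and Gfra3, Gfra4, Gdnf and Artn lie near the line.

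None of the 4 co-receptor genes had a difference near the size of that of Ret. Gfra1 encodes the co-receptor that binds GDNF, and Gfra2 the one that binds neurturin. Both were well above the dim range on all 6 arrays, so transcripts of co-receptors were present with and without IKZF1. Gfra1 read 10.86, 10.61 and 11.17 on IKZF1 1 to 3 and 10.95, 10.55 and 11.57 on empty vector 1 to 3. The groups overlapped, with a difference of -0.14 ± 0.34 (SE, n = 3 each). Gfra1 differed instead between replicate numbers: in both groups number 3 was highest and number 2 lowest, and replicate number took 88.0% of its sum of squares, against 4.38% for group. Its SD within a group, 0.28 in IKZF1 and 0.51 in empty vector arrays, was exceeded by 4.42% and 3.74% of genes in those groups. Without empty vector 3 its difference was 0.13, of opposite sign.

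Gfra2 was slightly lower in the IKZF1 group. It read 11.10, 11.32 and 11.09 on IKZF1 1 to 3 and 11.53, 11.40 and 11.43 on empty vector 1 to 3. Every IKZF1 array lay below every empty vector array, IKZF1 2 narrowly, by 0.08. The difference was -0.28 ± 0.08 (SE), a ratio of 0.822, and 14.3% of genes differed more in either direction.

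Gfra3, whose product binds artemin, and Gfra4, whose product binds persephin in the mouse, were dim. Gfra3 read 6.20, 6.49 and 6.28 on IKZF1 1 to 3 and 6.03, 6.26 and 6.07 on empty vector 1 to 3, with overlapping groups and a difference of 0.20 ± 0.11 (SE). Its 3 differences between same-numbered arrays were close to each other, from 0.17 to 0.23. Gfra4 read 6.33, 6.47 and 6.26 on IKZF1 1 to 3 and 6.12, 6.34 and 6.37 on empty vector 1 to 3. Its groups overlapped as well (difference 0.08 ± 0.10, SE), and without empty vector 1 the difference was -0.00093. Both genes lay near the limit: Gfra3 was above 6.24 on 3 of the 6 arrays and Gfra4 on 5.

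Of the 3 ligand genes Gdnf, Nrtn and Artn, Nrtn alone lay above the dim range on every array. It encodes neurturin, the ligand of GFRA2. Nrtn read 7.40, 7.87 and 7.63 on IKZF1 1 to 3 and 7.18, 7.39 and 7.35 on empty vector 1 to 3. The IKZF1 arrays all lay above the empty vector arrays, IKZF1 1 by less than 0.01 over empty vector 2. The difference was 0.32 ± 0.15 (SE), a ratio of 1.25, and 10.8% of genes differed more.

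Gdnf, the founding ligand of the family, read 6.11, 6.70 and 6.20 on IKZF1 1 to 3 and 6.09, 6.21 and 6.07 on empty vector 1 to 3. Artn, which encodes artemin, read 5.67, 6.25 and 5.86 on IKZF1 1 to 3 and 5.71, 5.74 and 5.72 on empty vector 1 to 3. Both genes had overlapping groups, and IKZF1 2, the array with the highest dim range, stood apart. Their differences were 0.21 ± 0.19 and 0.20 ± 0.17 (SE), and without IKZF1 2 they were 0.032 and 0.044. Gdnf lay above the higher dim limit on 1 array and Artn on 1 array.

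Counted over the set, the groups did not overlap for 3 of 8 genes, Ret and Nrtn higher and Gfra2 lower, where 26.5% of all genes had groups that did not overlap. Ret was the 1 gene of 8 that rose by at least 2-fold. The 7 partners had a median difference of 0.20, with 5 above 0 and 2 below, against a median of 0.03 over all genes, of which 59.2% lay above 0. These counts describe genes that were chosen with the contrast known, and nothing is read from them.

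**Figure D2:**
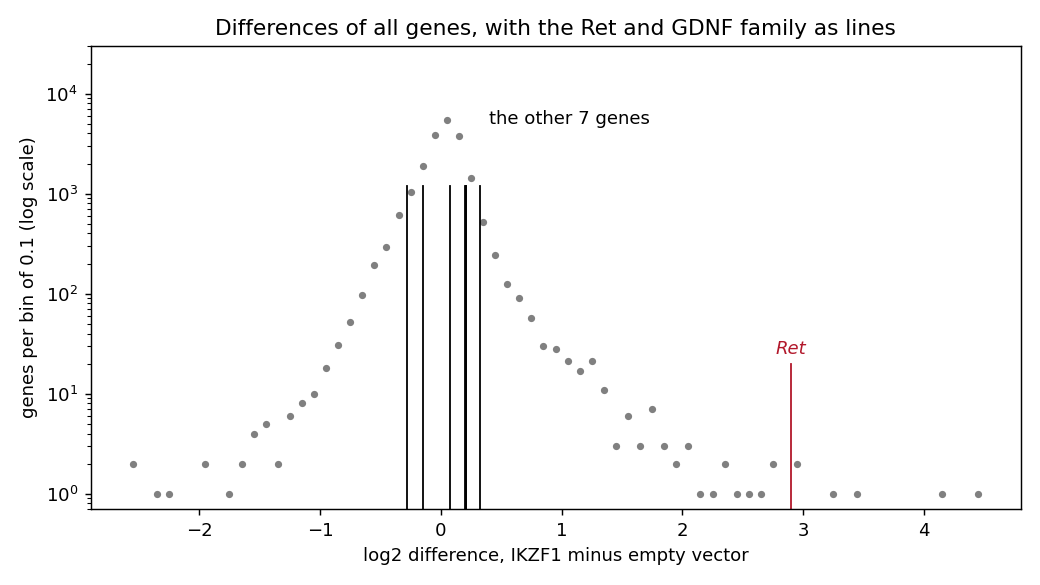
Number of genes by log2 difference, IKZF1 minus empty vector, over 19936 genes (x axis, bins of 0.1; y axis, genes per bin on a log scale; points are the bins that hold a gene), with vertical lines at the 8 genes. Ret lies at 2.90 in the sparse right tail, and the other 7 lie between -0.28 and 0.32 where most genes lie.

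The promoter windows of the set were read for GGGAA, the core of the motif that Ikaros binds, on either strand. Windows run from 250 bases before to 50 after a start site and are RefSeq sequence on GRCm38.p6. The table held windows for Gfra1, Gfra4, Gdnf, Nrtn and Artn, 7 in all, and 4 of the 7 held the motif. Of 32851 windows of the same length 62.7% held it at least once and 8.83% at least 3 times. Shown here are the window of Nrtn, the ligand gene whose groups did not overlap, and that of Gfra1, the bright co-receptor gene whose groups did. Capitals mark GGGAA or, for the opposite strand, TTCCC. The windows lie at chr17:56757499-56757798 for Nrtn and chr19:58455349-58455648 for Gfra1, both on the minus strand, and read 5′ to 3′ toward the gene.
Nrtn: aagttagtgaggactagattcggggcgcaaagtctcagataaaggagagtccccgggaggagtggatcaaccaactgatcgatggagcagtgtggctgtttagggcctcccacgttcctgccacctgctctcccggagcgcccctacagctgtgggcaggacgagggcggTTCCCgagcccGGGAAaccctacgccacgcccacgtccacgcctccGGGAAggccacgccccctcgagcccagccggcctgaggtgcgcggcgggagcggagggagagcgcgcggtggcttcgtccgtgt
Gfra1: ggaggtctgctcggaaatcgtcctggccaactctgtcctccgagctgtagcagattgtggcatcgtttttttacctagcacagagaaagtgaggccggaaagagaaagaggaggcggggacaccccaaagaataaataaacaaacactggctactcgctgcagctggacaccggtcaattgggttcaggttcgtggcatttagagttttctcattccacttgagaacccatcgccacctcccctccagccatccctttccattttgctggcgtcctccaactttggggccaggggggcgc
Gfra4, Gdnf and Artn, whose groups overlapped, each had a window that held GGGAA 2 times. The Nrtn window held the motif 3 times, starting 80, 69 and 34 bases before the start site, and the Gfra1 window did not hold these letters. The longer form TGGGAA, which contains GGGAA, was in neither window, was in 1 window each of Gfra4 and Artn, and was in 25.6% of all windows. A match is a description of the letters and not a bound site, and Ret, Gfra2 and Gfra3 were not analysed here in this respect.

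Ret was set beside the other receptor tyrosine kinase genes, 55 of 57 of which were measured. In the limma fit over all genes, 0 of the 55 passed an adjusted p under 0.05, where 2.25% of all genes did. An unadjusted p under 0.05 was reached by 6 of them, and by 3671 of the 19936 genes. Their differences ran from -0.61 for Epha5, which encodes an ephrin receptor, to 0.35 for Igf1r, which encodes the receptor of insulin-like growth factor 1, so the difference of Ret was over 4 times any of theirs in size. The median of the 55 was 0.09, and 45 of 55 lay above 0, against 0.03 and 59.2% over all genes. Igf1r averaged 6.19 in the IKZF1 group and 5.84 in the empty vector group, both within the dim range (limma adjusted p = 0.14). Lmtk3 (0.28, adjusted p = 0.19), Epha10 (0.32, adjusted p = 0.21), Ltk (0.30, adjusted p = 0.24) and Ror2 (0.34, adjusted p = 0.26) had the next smallest p in limma. With replicate number as a block, 3 of the 55 passed: Igf1r and the kinase gene Aatk higher, and Ryk, a Wnt receptor gene, lower. In that fit 7.21% of all genes passed. Ryk and Aatk are named after their values were seen.

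**Figure D3:**
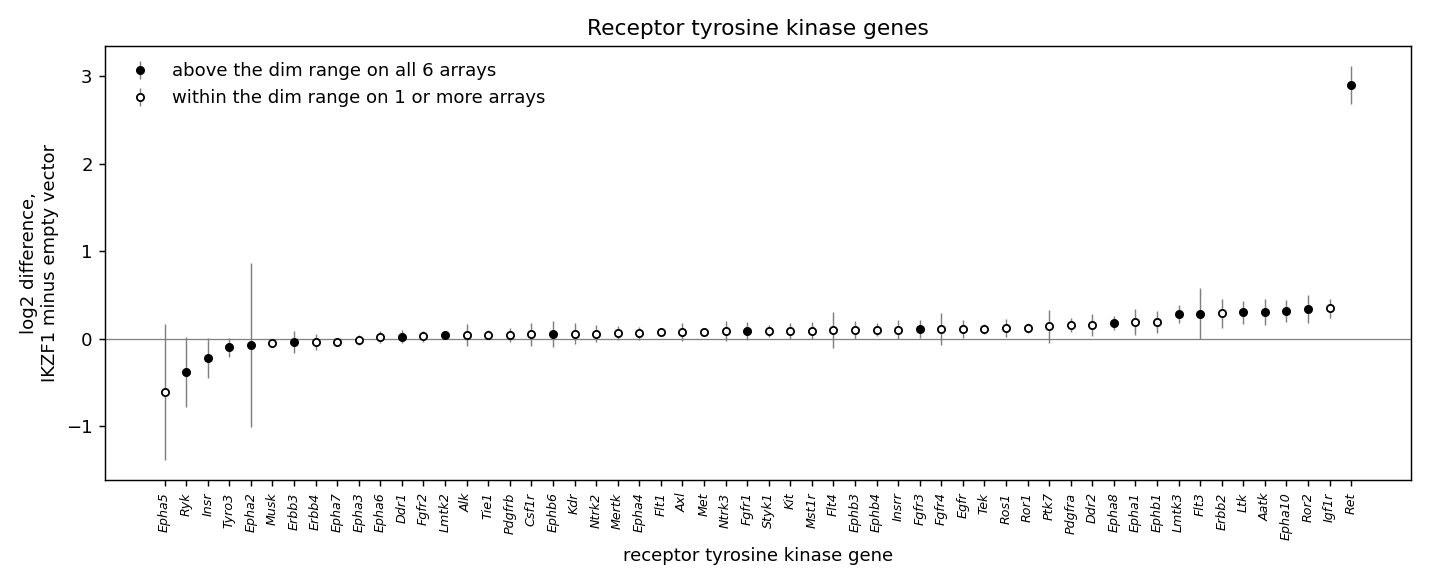
Log2 difference, IKZF1 minus empty vector (y axis), with its SE as bars, for Ret and 55 other receptor tyrosine kinase genes in rising order (x axis). Filled points lie above the dim range (6.24) on all 6 arrays and open points do not; Ret stands at 2.90 and the others between -0.61 and 0.35.

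With group as the only term, other parts of the ligand and co-receptor system stayed below the threshold. With the replicate block, where 7.21% of all genes passed, 2 passed. Of 15 measured genes for further ligands, co-receptors and surface modulators of RET, 0 passed in limma without the block, where 2.25% of all genes did. An unadjusted p under 0.05 was reached by 5, and by 3671 of the 19936 genes. Of the 15, 14 lay above 0 with a median of 0.16, against 59.2% and 0.03 over all genes. Pspn, which encodes persephin, the ligand of GFRA4, averaged 7.36 ± 0.11 in the IKZF1 group and 7.10 ± 0.07 in the empty vector group (SD, n = 3 each), a difference of 0.26 (limma adjusted p = 0.15). Gfral, the gene of the more distant co-receptor that binds GDF15, lay within the dim range on all 6 arrays. Sorl1, which encodes a sorting receptor that binds GDNF and GFRA1, had a difference of 0.99 ± 0.26 (SE, limma adjusted p = 0.12). Cblb, the gene of a ubiquitin ligase of the family that degrades activated RET, had 0.36 ± 0.08 (SE, limma adjusted p = 0.074). Both passed with the replicate block (limma adjusted p = 0.0041 and 0.033). Ptprj (0.18, limma adjusted p = 0.23) and Sdc3 (0.22, limma adjusted p = 0.25) did not pass with or without it.

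Of 38 measured genes for adaptors and enzymes recruited to RET or acting just below it, 0 passed in limma with group as the only term. With the replicate block 1 passed, where 2.25% and 7.21% of all genes passed in these fits. An unadjusted p under 0.05 was reached by 8, and by 3671 of the 19936 genes. The median difference of the 38 was -0.0026, with 19 above 0, against 0.03 and 59.2% over all genes. The adaptor gene Dok3, known as a brake on B cell receptor signalling, had a difference of 0.90 ± 0.21 (SE, limma adjusted p = 0.093), and passed with the replicate block (limma adjusted p = 0.023). The insulin receptor substrate gene Irs1 (0.37, limma adjusted p = 0.092), the adaptor gene Grb10 (-0.39, limma adjusted p = 0.12), the ERK pathway kinase gene Map2k1 (-0.19, limma adjusted p = 0.16) and Pdlim7 (0.24, limma adjusted p = 0.18), which encodes a RET-binding scaffold, did not pass in either fit. Without empty vector 3, where 4.75% of all genes passed, 4 of the 38 did so: Gab1, Dok3 and Irs2 higher and Grb10 lower (limma adjusted p = 0.028 for Grb10), of which Gab1 and Irs2 are named after their values were seen.

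Of 16 measured transcription factor genes linked to Ret in nerve, kidney or endocrine tissue, 0 passed in limma with group as the only term. With the replicate block 2 passed, where 2.25% and 7.21% of all genes passed in these fits. An unadjusted p under 0.05 was reached by 3 of the 16, and by 3671 of the 19936 genes. Their median difference was 0.09, against 0.03 over all genes. The Ets factor gene Etv1 came closest: it averaged 7.44 in the IKZF1 group and 8.96 in the empty vector group, a difference of -1.53 ± 0.29 (SE, limma adjusted p = 0.054). Etv1 passed with the replicate block (limma adjusted p = 0.0017) and in 5 other settings. The oestrogen receptor gene Esr1 (0.41, limma adjusted p = 0.28) passed with the block (limma adjusted p = 0.029), while Zeb2 (0.32, limma adjusted p = 0.23) passed without empty vector 3 (limma adjusted p = 0.048). The retinoic acid receptor genes Rarg (0.23) and Rara (-0.16) had limma adjusted p of 0.23 and 0.40, and Rarg lay above 6.24 on only 2 of the 6 arrays. Sox10, a neural crest factor that acts on Ret in the gut, had a difference of 0.10. Gata3, a factor of kidney and lymphoid cells, had 0.13 but lay within the dim range on all 6 arrays.

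Genes known to respond to GDNF and RET in other tissues, with feedback genes of the ERK pathway, mostly lay below 0. With group as the only term, 1 of them passed. Of 22 measured, 1 fell in limma, 0 rose and 21 did not pass, where 1.13% of all genes fell and 1.12% rose. The median was -0.17, with 7 above 0 and 8 at an unadjusted p under 0.05. The one that fell was Spred1, an inhibitor of Ras signalling, by 0.43 ± 0.08 (SE, limma adjusted p = 0.047, and 0.056 after centring each array). Spred1 did not pass when any one of the 5 arrays other than empty vector 3 was left out (limma adjusted p = 0.089 to 0.22). Spred2 (-0.43), Etv5 (-0.66), Spry1 (-0.36) and Spry2 (-0.29) had limma adjusted p of 0.059, 0.064, 0.075 and 0.11. Etv5 is an Ets factor induced by RET in kidney and spermatogonia, and the Sprouty gene Spry1 restrains RET signalling in the kidney. With the replicate block, where 3.36% of all genes rose and 3.85% fell, 5 of the 22 passed, Spred1, Spred2, Etv5 and Spry1 lower and the immediate early gene Fos higher; Fos is named after its value was seen. Without empty vector 3, where 4.75% of all genes passed, 4 of the 22 did so, all lower: Spred1, Etv5, Etv4 and Ccnd1. The last 2 had limma adjusted p of 0.026 and 0.018 there, and 0.22 and 0.33 with all 6 arrays. Etv4 and Ccnd1 are named after their values were seen. The spermatogonial targets Bcl6b and Id4 had differences of -0.03 and 0.16. Wnt11, a target at the kidney's ureteric tip, had 0.20 and lay above 6.24 on only 2 of the 6 arrays. No activity of RET was measured here.

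The genes around Ret on its chromosome were compared, 5 named and measured on each side in the order of the RefSeq gene table for GRCm38.p6, from which names and order alone were taken. None of the 10 passed in limma with group as the only term (0 of 10, with 2 at an unadjusted p under 0.05), and 1 passed with the replicate block. Over all genes, 2.25% and 7.21% passed in these fits, and 3671 of 19936 had an unadjusted p under 0.05. The nearest on one side, Csgalnact2, which encodes an enzyme of chondroitin sulphate synthesis, read 8.87, 8.54 and 8.75 on IKZF1 1 to 3 and 8.29, 8.23 and 8.19 on empty vector 1 to 3. Its groups did not overlap, and its difference was 0.49 ± 0.09 (SE, limma adjusted p = 0.058, and 0.028 with the replicate block). The next, Rasgef1a, the gene of a guanine nucleotide exchange factor, did not overlap between the groups either (difference 0.37, limma adjusted p = 0.15) but lay within the dim range on all 6 arrays. The other 8, Fxyd4, Hnrnpf, Zfp239, Bms1, Zfp248, Zfp9, Ankrd26 and Cacna1c, had overlapping groups and differences between -0.17 and 0.17. Over all genes, 26.5% had groups that did not overlap.

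**Figure D4:**
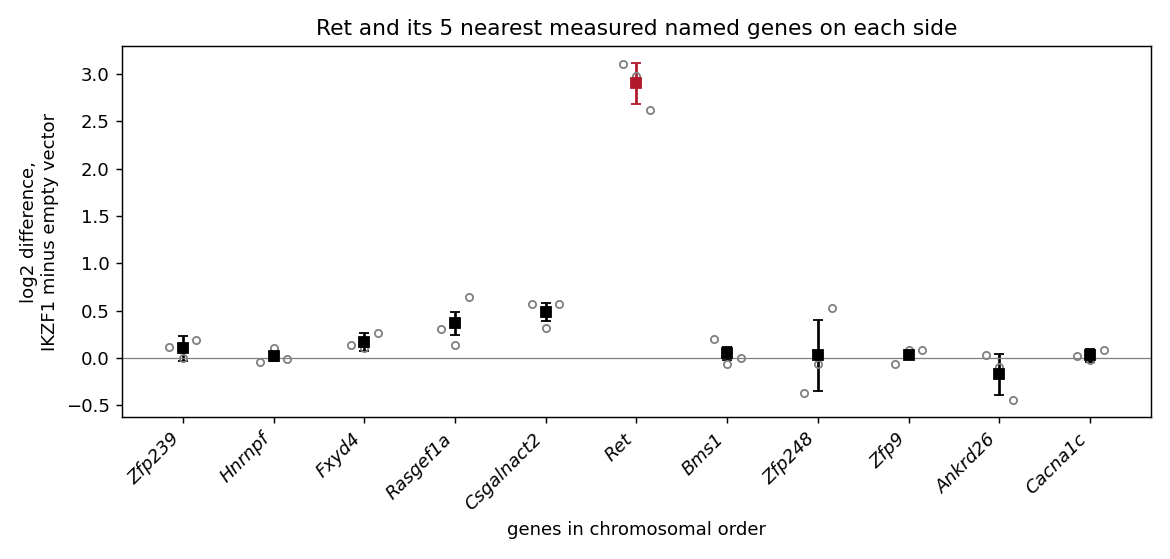
Log2 difference, IKZF1 minus empty vector (y axis), for Ret (red) and the 5 nearest named and measured genes on each side in chromosomal order (x axis). Squares with bars are the difference and its SE, and open circles are the differences between arrays numbered 1, 2 and 3. Ret stands at 2.90, Csgalnact2 and Rasgef1a at 0.49 and 0.37, and the other 8 between -0.17 and 0.17.

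The 6 genes whose profiles over the 6 arrays were closest to that of Ret were Cpe, Frmd5, Prm1, Mmp13, Slfn1 and Slco1b2. Closeness was the root mean square difference between log2 profiles centred on their means, and it ran from 0.18 for Cpe to 0.42 for Slco1b2, with differences of 2.13 to 2.91 between the groups. Pearson's r with Ret lay between 0.96 and 0.99 over the 6 arrays, which mostly restates that all 7 genes are higher in the IKZF1 group. Cpe, which encodes carboxypeptidase E, had 9.07, 8.88 and 8.32 on IKZF1 1 to 3 and 6.09, 6.37 and 5.64 on empty vector 1 to 3. Frmd5, the gene of a FERM domain protein, had 9.39, 9.11 and 8.90 on IKZF1 1 to 3 and 6.39, 6.64 and 6.50 on empty vector 1 to 3. As with Ret, IKZF1 3 was the lowest IKZF1 array for each of the 6 genes. The low IKZF1 3 value is part of the Ret profile by which they were chosen, so nothing is read from this.

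**Figure D5:**
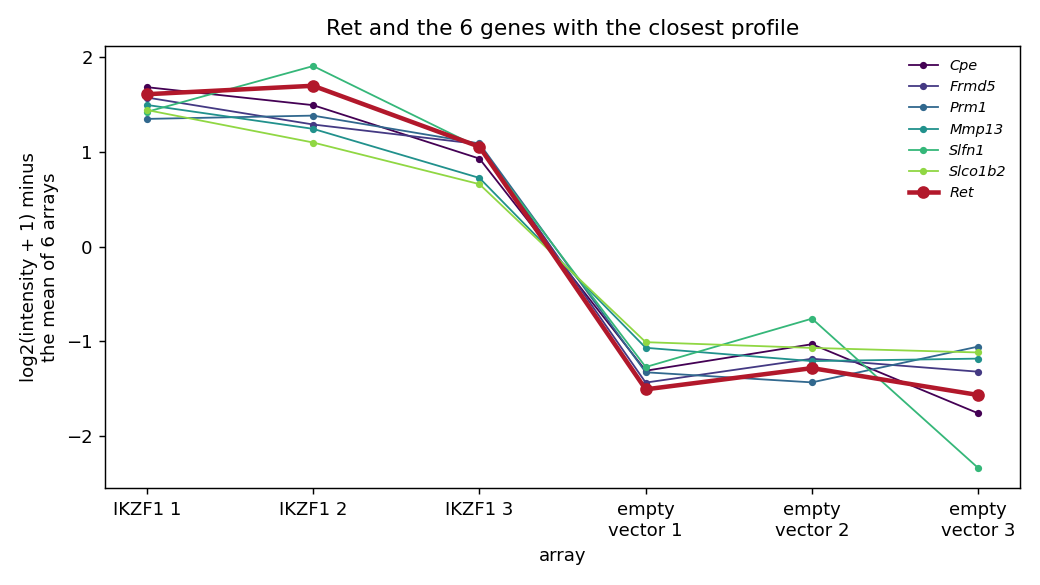
Log2(intensity + 1) of Ret (thick red line) and the 6 genes with the closest profile, each minus its mean over the 6 arrays (y axis), on IKZF1 1 to 3 and then empty vector 1 to 3 (x axis). All 7 lie above 0 on the IKZF1 arrays and below 0 on the empty vector arrays, and each is lowest among the IKZF1 arrays on IKZF1 3. The 6 genes were chosen by closeness to the Ret profile.

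Markers of other cells in which RET or its co-receptors are known were read beside these values. Over all genes, 2.25% passed in limma, 3671 of 19936 had an unadjusted p under 0.05, and 59.2% had a difference above 0. Of 12 measured neuron and glia markers 0 passed in limma, with 2 at an unadjusted p under 0.05, and 6 lay above the dim range in each group. Their summed intensity ran from 1425 to 1533 on the IKZF1 arrays and from 1469 to 1749 on the empty vector arrays. Elavl4, Dbh, Chat and Prph lay within the dim range on all 6 arrays. For 10 germ cell markers, 0 passed and 0 had an unadjusted p under 0.05, with sums of 587 to 729 on the IKZF1 arrays and 552 to 595 on the empty vector arrays. For 9 markers of T, NK and innate lymphoid cells, 0 passed and 1 had an unadjusted p under 0.05. Their sums, 603 to 724 on the IKZF1 arrays and 559.9 to 584 on the empty vector arrays, did not overlap. Of the 9, 8 had a difference above 0, with 3 above the dim range in the IKZF1 group and 2 in the empty vector group. Cd3e, a T cell receptor complex gene, averaged 7.34 in the IKZF1 group and 6.95 in the empty vector group (difference 0.39, limma adjusted p = 0.21), and Cd5, which some B cells also express, was above the dim range on all 6 arrays. Cd3d, Cd3g, Cd4, Ncr1, Klrb1c and Nkg7 lay within the dim range on all 6 arrays. Stroma and endothelium markers had sums of 2391 to 2528 on the IKZF1 arrays and 1772 to 2180 on the empty vector arrays. These sums did not overlap either, with 0 of 10 markers past the threshold and 3 at an unadjusted p under 0.05. Of the 10, 4 lay above the dim range in the IKZF1 group and 5 in the empty vector group. Taken singly, 26.5% of all genes had groups that did not overlap. The dim limit was higher in the IKZF1 group (6.24) than in the empty vector group (6.12), and its part in these sums was not tested. Granulocyte, macrophage and erythroid or megakaryocyte markers had 0 of 10, 0 of 9 and 0 of 8 past it, with 0, 1 and 1 at an unadjusted p under 0.05. The part of such cells in the Ret values was not tested.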

How the data were processed

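Per the submitters' processing notes, the deposited probe set intensities were made by the authors with RMA; no version or build is named in those notes. The intensities are on a linear scale, from 11.1 to 23523, and carry no read depth, so the number of arrays limits precision. Here log2(intensity + 1) was computed. Of 35421 probe sets, 21789 pair with 1 symbol in the platform table (1621 with several, 12011 unnamed here), updated through the gene number. The brightest probe set stood for each of 1001 genes with several, leaving 19936. The comparison of groups used limma 3.58.1 under R 4.3.3 (functions lmFit and eBayes, 2-sided, group as only term, Benjamini-Hochberg over all 19936 genes, adjusted p under 0.05), a step tested on simulated data. SEs beside a limma p are the model's, and others come from the 2 group SDs.

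The members and gene lists were chosen with earlier results of these data known. Named genes were the members, Ikzf1, up to 5 per list (those past the threshold, then the smallest p), the neighbours of Ret and the 6 closest profiles. Epha5, Gfral, Sox10, Gata3, Bcl6b, Id4, Wnt11 and the named cell type markers fall outside this rule. So do the genes marked as named after their values were seen. Same-numbered arrays deviated together (r = 0.24, 0.60 and 0.66, against -0.68 to 0.11 for different numbers), so the numbers may pair the arrays, which the labels do not say. The main fit leaves the numbers out and passed 448 genes, against 1438 with a replicate block. The fit with the block is given where it changes a call. Alternatives were 16 as pseudocount, mean of probe sets, quantile, cyclic loess and median centring, brighter genes, an intensity trend, and leaving out each array. List genes without a probe set of 1 symbol, and protein sequences, were not analysed here.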

Additional observations from a re-analysis of the deposited data

How the results depend on the processing

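The difference of Ret lay between 2.70 (pseudocount of 16) and 3.10 (without IKZF1 3) over 13 alternatives, and the 7 partners each moved by less than the SD between arrays, in 13 or, for Gdnf and Artn, which a limit to brighter genes removes, 12 alternatives. Of the partners, Gfra1 and Gfra4 changed sign without 1 array, as given above. Over all genes 448 passed in limma, 1438 with the replicate block, and 24 to 947 without single arrays (24 without IKZF1 1, 83 without IKZF1 2, 85 without IKZF1 3, 28 without empty vector 1, 163 without empty vector 2 and 947 without empty vector 3). Of these omissions, only that of empty vector 3 raised the count. This array also stood apart on the first principal component, at -41.7, against -2.73 to 24.5 for the other arrays. Over all genes, 402 passed with arrays centred, 559 with cyclic loess, 465 with the mean of probe sets and 547 with quantile normalization. With an intensity trend 407 passed, and with brighter genes, where fewer genes were tested, 477. With the block, limma passed 5 from the list of GDNF and RET response genes with ERK feedback genes. It also passed 2 upstream factors, 2 ligand and modulator genes, 1 signalling gene, 3 receptor tyrosine kinases and 1 neighbour of Ret. The response and ERK feedback genes that passed numbered 0 with arrays centred, 2 with cyclic loess, 2 with the mean of probe sets and 2 with quantile normalization. Without single arrays they numbered 0 to 4 (4 without empty vector 3, 0 without each of the others). For upstream factors, 1 passed with brighter genes, 1 with cyclic loess, 1 with an intensity trend, and 0 to 2 without single arrays (1 without empty vector 2, 2 without empty vector 3). Signalling genes numbered 0 to 4 without single arrays, 4 without empty vector 3. For the neighbours of Ret, settings chosen after seeing the data, 1 passed with quantile normalization and 1 with cyclic loess, Csgalnact2 each time. The causes were not tested. Dim genes are limited by signal over background, which bears on Gfra3, Gfra4, Gdnf, Artn and the empty vector level of Ret.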
